A study of Mus musculus with 16 samples.

Results

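Chemokines are small secreted proteins that direct the movement of leukocytes through G protein-coupled receptors. Families are named for the spacing of their leading cysteines, and fractalkine, encoded by *Cx3cl1*, is the only chemokine of its own family. *Cxcl1*, *Cxcl2* and *Cxcl5* attract neutrophils, *Cxcl9*, *Cxcl10* and *Cxcl11* are interferon-responsive ligands of CXCR3 on activated T cells, *Cxcl12* holds hematopoietic and progenitor cells in bone marrow through CXCR4, *Cxcl14* is made constitutively by many epithelia and stromal cells, and *Cxcl16* and fractalkine are anchored in the membrane until proteases shed them. In joints these ligands are known from inflamed synovium and from cartilage cells exposed to inflammatory cytokines. The 10 genes named here were chosen by symbol, as members of the family, and each was found once among the 55414 genes in the count data.

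RNA was sequenced from chondrocyte-enriched cells of the epiphysis, the cartilaginous end of long bones, of newborn heterozygous *Notch2* tm1.1Ecan mice, labelled *Notch2* mutant, and of control littermates, labelled wild type. The mutation, carried in all tissues on a C57BL/6 background, ends NOTCH2 ahead of its PEST domain; without that domain the active fragment of the receptor escapes breakdown and Notch signaling is raised. Cells of each genotype were given PBS as vehicle, or 50 ng/ml of TNFα, over 6 h, which gave 4 groups of 4 libraries, and the sex of every sample is given as pooled male and female. The labels state that serum was withdrawn in the TNFα groups only, whereas the study describes both treatments without serum; if the labels hold, withdrawal of serum and TNFα cannot be told apart in the comparisons of treatment.

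Counts assigned to genes ranged from 12552727 to 19925916 per library in 14 libraries, and were 44237300 in *Notch2* tm1.1Ecan vehicle replicate 4 and 3439726 in *Notch2* tm1.1Ecan TNFα replicate 4. Levels are given as CPM, counts brought to a common library size and scaled by the trimmed mean of M values over the 16 libraries, and 3 counts, taken as the floor of detection, corresponded to 0.069 to 0.236 CPM in all libraries but the shallow one, where they corresponded to 0.828 CPM. *Notch2* itself measured 129, 135, 104 and 151 CPM in control vehicle libraries and 136, 162, 145 and 164 CPM in *Notch2* tm1.1Ecan vehicle libraries, and the counts of the whole gene do not show the mutation. With TNFα it measured 188, 136, 129 and 169 CPM in control and 210, 211, 240 and 230 CPM in *Notch2* tm1.1Ecan libraries (log2 fold change 0.53 ± 0.12 SE, adjusted p = 0.0178), while with vehicle it was not called (0.23 ± 0.11, adjusted p = 0.283). It rose with TNFα in *Notch2* tm1.1Ecan cells (0.55 ± 0.07, adjusted p = 1.45e-07) and was not called in control cells (0.27 ± 0.17, adjusted p = 0.279). The interaction of genotype and TNFα was not called for it (0.29 ± 0.18, adjusted p = 0.720). *Heyl*, a target of Notch signaling, measured 0.221, 0.152, 0.257 and 0.298 CPM in control vehicle libraries and 1.79, 1.44, 2.28 and 2.28 CPM in *Notch2* tm1.1Ecan vehicle libraries (log2 fold change 3.04 ± 0.33 SE, adjusted p = 6.24e-07). The *Heyl* levels of the genotypes did not overlap with either treatment (with TNFα 2.46 ± 0.42, adjusted p = 0.000144). *Hes1* and *Hey1*, also targets, were higher in mutant cells with vehicle (0.61, adjusted p = 0.000405, and 0.59, adjusted p = 0.00727) and not called with TNFα (0.62, adjusted p = 0.211, and 0.10, adjusted p = 0.861), where *Hes1* was called without control TNFα replicate 4 (1.06, adjusted p = 0.000829).

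Control vehicle replicate 4 stood apart from the other vehicle libraries. On the main axis of variation among the 16 libraries, a principal component of log2 CPM with 51.9% of the variance, it lay at 20.6, the other 7 vehicle libraries at 63.7 to 67.1, control TNFα replicate 4 at -45.4 and the other 7 TNFα libraries at -64.1 to -59.4. It held 231 CPM of *Cxcl10*, where control vehicle replicates 1, 2 and 3 held 0.884, 0.381 and 0.836 CPM. The 8 members that were higher with TNFα stood in control vehicle replicate 4 at 11.4% (*Cxcl11*) to 27.7% (*Cxcl5*) of their mean in control TNFα replicates 1 to 3, and in control TNFα replicate 4 at 61.8% (*Cxcl11*) to 92.4% (*Cxcl5*) of that mean. *Irf1*, an interferon regulatory factor, likewise measured 59.9 CPM in control vehicle replicate 4 and 15.1 to 18.6 CPM in the other control vehicle libraries. The summed CPM of 15 chondrocyte markers was 51880 in control vehicle replicate 4 and 53772 to 55678 in the other 3, and that of 12 macrophage markers was 72.6 against 74.5 to 79.3. Control TNFα replicate 4 had a chondrocyte sum of 44602 CPM, and the other 3 control TNFα libraries 37624 to 38713 CPM. What set these libraries apart was not tested, and most results below that rest on them are given with and without replicate 4 of the control groups.

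With vehicle, *Cxcl12* was the most abundant ligand in every library but control vehicle replicate 4. In CPM per kilobase of exonic sequence (RPKM), the scale on which genes can be compared, it stood at 83.5 ± 0.542 (SD, n = 3) RPKM in control vehicle replicates 1 to 3 and at 154 ± 5.78 (SD, n = 4) RPKM in *Notch2* tm1.1Ecan vehicle libraries. In control vehicle replicate 4 it stood at 78.0 RPKM, below *Cxcl10* at 103 RPKM. In *Notch2* tm1.1Ecan vehicle libraries *Cx3cl1* (13.5 RPKM) and *Cxcl14* (13.2 RPKM) followed and overlapped with each other, then *Cxcl5* (9.82 RPKM), and the other 6 members stood at 0.752 RPKM or less. With TNFα the order changed to *Cxcl10*, *Cx3cl1*, *Cxcl9*, *Cxcl12*, *Cxcl5*, *Cxcl1*, *Cxcl2*, *Cxcl16*, *Cxcl14* and *Cxcl11* in both genotypes, from 673 ± 71.7 to 2.36 ± 0.583 RPKM in control cells and from 541 ± 31.3 to 1.57 ± 0.122 RPKM in *Notch2* tm1.1Ecan cells (SD, n = 4). Neighbours in that order whose ranges met were *Cxcl2* and *Cxcl16* in both genotypes, *Cxcl5* and *Cxcl1* and *Cxcl14* and *Cxcl11* in control cells, and *Cxcl9* and *Cxcl12* in *Notch2* tm1.1Ecan cells. The lengths sum all annotated exons of a gene, so genes with long rare isoforms are understated on this scale.

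**Figure D1:**
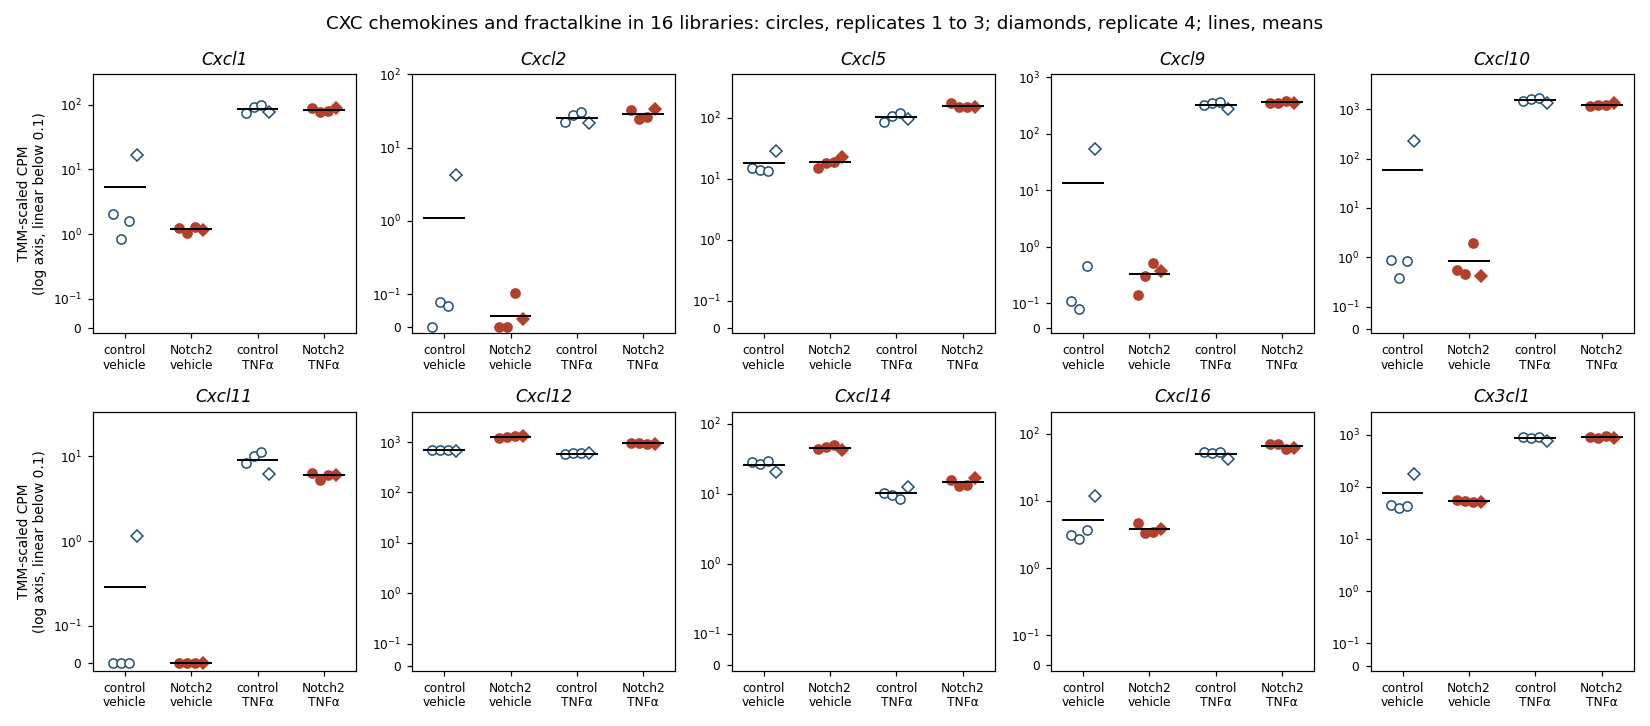
Level of each of the 10 genes in the 16 libraries as scaled CPM on a logarithmic axis that is linear below 0.1, with 1 symbol per library (open, control; filled, mutant; diamonds, replicate 4) and a line at the mean of each group. Control vehicle replicate 4 lies between the other vehicle libraries and the TNFα libraries for the 8 genes that are higher with TNFα, for example at 231 CPM of *Cxcl10*, and also for *Cxcl14*, which is lower with TNFα, while *Cxcl12* and *Cxcl14* are higher in mutant than in control libraries under both treatments.

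TNFα raised 8 of the 10 genes in *Notch2* tm1.1Ecan cells and lowered *Cxcl12* and *Cxcl14*; in the same comparison 22.6% of the 19633 genes tested were higher and 21.9% lower. A gene was called different at an adjusted p under 0.05 in edgeR's quasi-likelihood test. The median log2 fold change of the 10 genes was 5.14, or 4.49 with *Cxcl11* at its lower bound, beside 0.026 over all genes tested. In control cells 7 genes were higher (23.3% of all genes tested) and 2 lower (20.9%), with *Cxcl10* not called, and without replicate 4 of both control groups 8 were higher (24.6%) and 2 lower (22.8%). The median was 3.73 with all control libraries and 5.11 without replicate 4, or 4.92 with *Cxcl11* at its bound, beside 0.039 and 0.037 over all genes tested. The same TNFα libraries, and the same vehicle libraries, serve the comparisons of genotype given further on.

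Among the ligands that attract neutrophils, *Cxcl1* measured 2.05, 0.838, 1.61 and 17.0 CPM in control vehicle libraries and 73.9, 91.8, 99.3 and 78.2 CPM in control TNFα libraries. In *Notch2* tm1.1Ecan cells it measured 1.24, 1.03, 1.3 and 1.17 CPM with vehicle and 90.2, 78.8, 79.7 and 89.4 CPM with TNFα. Every TNFα library was above every vehicle library, and the control vehicle library at 17.0 CPM was the only vehicle library above 2.05 CPM. The log2 fold change was 6.15 ± 0.11 SE in *Notch2* tm1.1Ecan cells (adjusted p = 2.03e-25) and 3.95 ± 0.74 in control cells (adjusted p = 0.00511), which became 5.83 ± 0.22 without replicate 4 of the control groups (adjusted p = 2.51e-07).

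*Cxcl2*, a close relative of *Cxcl1*, was at the limit of detection with vehicle. It had 0, 0, 2 and 1 counts in *Notch2* tm1.1Ecan vehicle libraries and 487, 425, 450 and 122 counts in *Notch2* tm1.1Ecan TNFα libraries, a 904-fold ratio after scaling with an exact 95% counting interval of 309 to 4389. Control vehicle libraries had 0, 1, 1 and 71 counts and control TNFα libraries 284, 504, 522 and 411. In control cells the ratio of group means was 23.4 with all libraries, and without replicate 4 the ratio of the counts after scaling was 637 with a 95% interval of 176 to 5268. These intervals cover counting error only. The *Cxcl2* gene was called higher with TNFα in *Notch2* tm1.1Ecan cells (adjusted p = 2.49e-21) and in control cells (adjusted p = 0.00417), where the call was lost with the replicate number as a block (adjusted p = 0.057).

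*Cxcl5*, the third ligand of neutrophils, was expressed before TNFα was added. It measured 15, 13.9, 13.6 and 28.7 CPM in control vehicle libraries, 14.8, 18.4, 18.9 and 22.3 CPM in *Notch2* tm1.1Ecan vehicle libraries, 86.7, 106, 117 and 95.5 CPM in control TNFα libraries and 172, 152, 147 and 150 CPM in *Notch2* tm1.1Ecan TNFα libraries. TNFα raised it by a log2 fold change of 3.04 ± 0.10 SE in *Notch2* tm1.1Ecan cells (adjusted p = 5.47e-16) and 2.51 ± 0.28 in control cells (adjusted p = 0.00042), or 2.87 ± 0.11 without replicate 4 of the control groups (adjusted p = 1.77e-09), the smallest rise among the 8 genes that were higher in *Notch2* tm1.1Ecan cells. The TNFα libraries of the genotypes did not overlap for this gene.

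The 3 CXCR3 ligands stood at 1.97 CPM or less with vehicle in all libraries but control vehicle replicate 4, and with TNFα *Cxcl10* and *Cxcl9* were among the most abundant ligands. *Cxcl10* measured 0.551, 0.462, 1.97 and 0.414 CPM in *Notch2* tm1.1Ecan vehicle libraries and 1165, 1190, 1198 and 1323 CPM in *Notch2* tm1.1Ecan TNFα libraries (log2 fold change 10.62 ± 0.30 SE, adjusted p = 4.04e-08). In control TNFα libraries it measured 1449, 1595, 1692 and 1325 CPM. With all control libraries the log2 fold change was 4.68 ± 2.00 (adjusted p = 0.112), and without replicate 4 of the control groups 11.08 ± 0.12 (adjusted p = 1.52e-13). The control comparison of *Cxcl10* turned on control vehicle replicate 4, although every TNFα library lay above it.

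*Cxcl9* behaved alike. It measured 0.138, 0.308, 0.519 and 0.368 CPM in *Notch2* tm1.1Ecan vehicle libraries and 352, 348, 376 and 353 CPM in *Notch2* tm1.1Ecan TNFα libraries (log2 fold change 9.97 ± 0.12 SE, adjusted p = 5.17e-29). Control vehicle libraries held 0.111, 0.076, 0.450 and 53.0 CPM and control TNFα libraries 317, 347, 355 and 276 CPM. The control log2 fold change was 4.56 ± 1.49 (adjusted p = 0.0494) with all libraries, had an adjusted p of 0.0788 to 0.0982 with any single library other than control vehicle replicate 4 left out and 0.0917 with the replicate number as a block, and was 10.59 ± 0.13 without replicate 4 of the control groups (adjusted p = 6.72e-22).

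*Cxcl11* had no count in any *Notch2* tm1.1Ecan vehicle library or in control vehicle replicates 1 to 3, and 19 counts in control vehicle replicate 4. With TNFα it measured 8.43, 9.99, 11.2 and 6.12 CPM in control libraries and 6.42, 5.32, 6.02 and 6.07 CPM in *Notch2* tm1.1Ecan libraries. Against the highest floor of 3 counts in a vehicle library, its mean with TNFα was at least 28.8-fold higher in *Notch2* tm1.1Ecan cells and at least 43.3-fold higher in control cells without replicate 4. With all control libraries the ratio of group means was 31.6 (log2 fold change 4.88 ± 0.76 SE, adjusted p = 0.00208). It was the least abundant of the 3 ligands of CXCR3.

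The membrane-anchored ligands rose less steeply than *Cxcl1*, *Cxcl2* and the CXCR3 ligands, and more steeply than *Cxcl5*, from levels well above the floor. *Cx3cl1* measured 45.5, 39.6, 42.6 and 174 CPM in control vehicle libraries, 56.3, 53.9, 51.9 and 52.0 CPM in *Notch2* tm1.1Ecan vehicle libraries, 892, 878, 909 and 758 CPM in control TNFα libraries and 908, 882, 931 and 887 CPM in *Notch2* tm1.1Ecan TNFα libraries. The log2 fold change with TNFα was 4.08 ± 0.06 SE in *Notch2* tm1.1Ecan cells (adjusted p = 1.35e-26) and 3.51 ± 0.61 in control cells (adjusted p = 0.00357), or 4.39 ± 0.05 without replicate 4 of the control groups (adjusted p = 3.80e-31). *Cxcl16*, a scavenger receptor and ligand of CXCR6, measured 4.75, 3.34, 3.48 and 3.84 CPM in *Notch2* tm1.1Ecan vehicle libraries and 71.6, 70.9, 60.4 and 62.1 CPM in *Notch2* tm1.1Ecan TNFα libraries (log2 fold change 4.13 ± 0.10, adjusted p = 2.28e-22). Its control levels were 3.10, 2.67, 3.67 and 11.7 CPM with vehicle and 54.0, 52.5, 53.5 and 43.0 CPM with TNFα (log2 fold change 3.24 ± 0.44, adjusted p = 0.00107). Without replicate 4 of the control groups it was 4.08 ± 0.10 (adjusted p = 6.89e-23), and the ratio of group means went from 9.60 to 17.0. Neither gene had a vehicle library within the range of its TNFα libraries.

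*Cxcl12* and *Cxcl14*, the homeostatic ligands, fell with TNFα. *Cxcl12* measured 698, 701, 692 and 651 CPM in control vehicle libraries and 567, 599, 595 and 607 CPM in control TNFα libraries. In *Notch2* tm1.1Ecan cells it measured 1222, 1275, 1331 and 1314 CPM with vehicle and 971, 972, 933 and 926 CPM with TNFα. The fall was small in both genotypes, a log2 fold change of -0.20 ± 0.04 SE in control cells (adjusted p = 0.000235), or -0.24 ± 0.04 without replicate 4 (adjusted p = 1.81e-06), and -0.43 ± 0.05 in *Notch2* tm1.1Ecan cells (adjusted p = 2.08e-07). *Cxcl14* measured 27.9, 26.7, 29.3 and 20.1 CPM in control vehicle libraries and 10.3, 9.55, 8.51 and 12.3 CPM in control TNFα libraries (log2 fold change -1.34 ± 0.13, adjusted p = 3.09e-07; -1.57 ± 0.10 without replicate 4 of the control groups, adjusted p = 9.84e-14). In *Notch2* tm1.1Ecan cells it measured 43.9, 46.2, 49.6 and 41.8 CPM with vehicle and 15.6, 12.7, 13.4 and 16.6 CPM with TNFα (log2 fold change -1.68 ± 0.09, adjusted p = 8.94e-15). Vehicle and TNFα libraries did not overlap for either gene within a genotype.

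With vehicle, *Notch2* tm1.1Ecan cells differed from control cells in the homeostatic ligands. *Cxcl12* was 1.88-fold (log2 fold change 0.91 ± 0.05 SE, adjusted p = 5.49e-12) and *Cxcl14* 1.74-fold (0.81 ± 0.10, adjusted p = 1.72e-05) higher by group means, with all 4 *Notch2* tm1.1Ecan libraries above all 4 control libraries. These were the 2 of 10 genes called higher, beside 6.19% of the 19432 genes tested, and none was called lower, beside 4.35%. DESeq2 also called 0 lower, while *Cxcl11* was called lower with no filter beyond 1 count (adjusted p = 0.000703), and with the replicate number as a block *Cxcl2* (adjusted p = 0.0325) and *Cxcl11* (0.0195) were. The fitted differences of *Cxcl1*, *Cxcl2*, *Cxcl9*, *Cxcl10* and *Cxcl11* were large, negative and not called (log2 fold change -6.24 ± 2.58 for *Cxcl10*, adjusted p = 0.232) and rested on control vehicle replicate 4. Without that library *Cxcl12* (0.88 ± 0.04, adjusted p = 1.90e-12), *Cxcl14* (0.69 ± 0.07, adjusted p = 3.41e-07), *Cxcl5* (0.41 ± 0.11, adjusted p = 0.0223) and *Cx3cl1* (0.32 ± 0.06, adjusted p = 0.00108) were called higher, 4 of the 8 genes that then had enough counts, beside 5.78% higher and 4.59% lower of all genes tested. In that comparison *Cxcl10* had a log2 fold change of 0.17 ± 0.60, *Cxcl9* of 0.67 ± 0.66, *Cxcl16* of 0.27 ± 0.19 and *Cxcl1* of -0.38 ± 0.29, none of them called, and *Cxcl2* and *Cxcl11* had too few counts to be tested.

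With TNFα, the comparison of genotypes moved in both directions. Higher in *Notch2* tm1.1Ecan cells were *Cxcl12* (log2 fold change 0.70 ± 0.06 SE, adjusted p = 1.22e-09), *Cxcl5* (0.63 ± 0.08, adjusted p = 3.19e-06), *Cxcl14* (0.49 ± 0.12, adjusted p = 0.00921) and *Cxcl16* (0.41 ± 0.08, adjusted p = 0.00051). Lower were *Cxcl10* (-0.30 ± 0.07, adjusted p = 0.00547) and *Cxcl11* (-0.58 ± 0.16, adjusted p = 0.0184). These 4 higher and 2 lower of 10 stand beside 5.63% higher and 4.33% lower of the 19227 genes tested. The median log2 fold change over the 10 genes was 0.16, or 0.087 without control TNFα replicate 4, beside -0.01 over all genes tested. Of the 6, all but *Cxcl11* had groups that did not overlap: the lowest control library held 6.12 CPM of *Cxcl11* and the highest *Notch2* tm1.1Ecan library 6.42 CPM. For *Cxcl10* the gap was narrow, with the lowest control library at 1325 CPM and the highest *Notch2* tm1.1Ecan library at 1323 CPM. It was also narrow for *Cxcl14*, with the highest control library at 12.3 CPM and the lowest *Notch2* tm1.1Ecan library at 12.7 CPM. *Cxcl1* (-0.02 ± 0.08), *Cxcl2* (0.17 ± 0.12), *Cxcl9* (0.15 ± 0.07) and *Cx3cl1* (0.08 ± 0.06) were not called.

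Without control TNFα replicate 4 the counts were again 4 higher (6.35% of all genes tested) and 2 lower (4.57%), with log2 fold changes of 0.60 for *Cxcl5*, 0.71 for *Cxcl12*, 0.60 for *Cxcl14*, 0.33 for *Cxcl16*, -0.36 for *Cxcl10* and -0.74 for *Cxcl11*. Fitting all 16 libraries together, control vehicle replicate 4 among them, left *Cxcl12* and *Cxcl14* called. It raised the adjusted p of *Cxcl5* to 0.064, of *Cxcl16* to 0.412, of *Cxcl11* to 0.477 and of *Cxcl10* to 0.918. What raised these values was not tested. *Cxcl11* was not called without replicate 2 (adjusted p = 0.0704) or replicate 3 (0.0946) of the control TNFα group, or without replicate 2 (0.0825) or replicate 3 (0.061) of the mutant TNFα group, and *Cxcl14* was not called without replicate 3 of the control (adjusted p = 0.0566) or replicate 1 of the mutant TNFα group (0.0563).

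**Figure D2:**
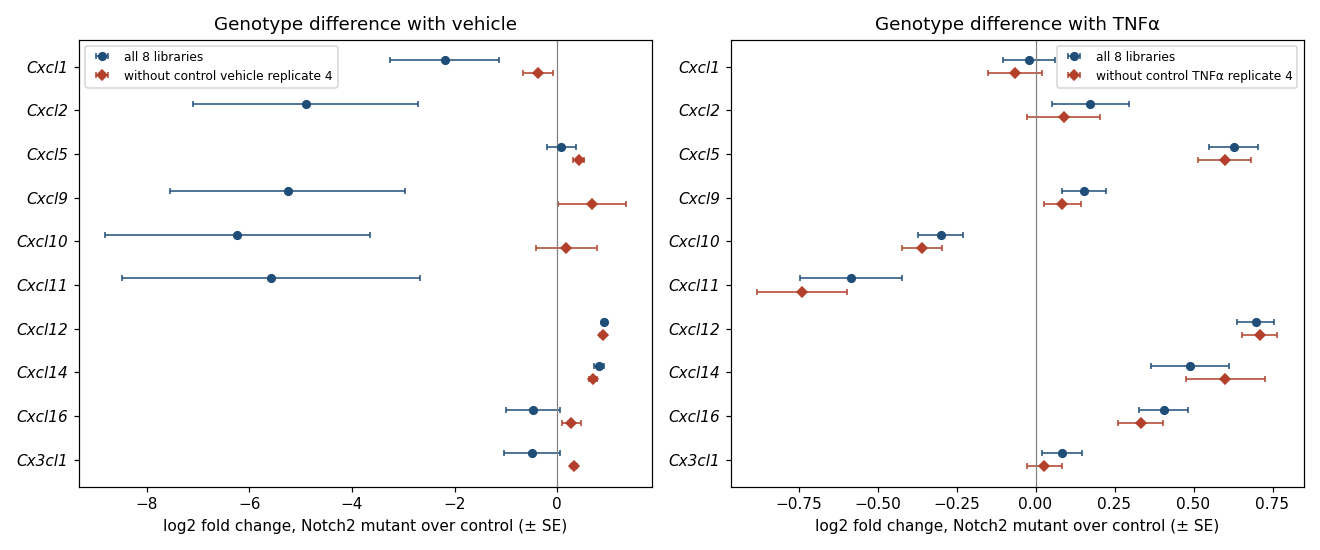
Log2 fold change of each gene between mutant and control cells with vehicle (left) and with TNFα (right), with bars of ± SE; circles use all 8 libraries and diamonds leave out replicate 4 of the control group. With vehicle, *Cxcl10* moves from -6.24 to 0.17 when that library is left out, while *Cxcl12* stays at 0.91 and 0.88; with TNFα the values lie close together.

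Whether the response to TNFα differed between genotypes was tested as the interaction over 16 libraries. None of the 10 genes was called by edgeR, beside 0.474% of the 21321 genes tested. An unadjusted p under 0.05 was found for 5 (*Cxcl1*, *Cxcl2*, *Cxcl9*, *Cxcl10* and *Cxcl12*), and DESeq2 called 1, *Cxcl12*. The shares of all genes at an unadjusted p under 0.05 and with DESeq2 are not given here, so these counts cannot be set against all genes. The *Cxcl12* interaction was -0.22 ± 0.07 SE (adjusted p = 0.202 in edgeR and 0.00834 in DESeq2). Without replicate 4 of both control groups edgeR again called none, beside 0.630% of genes. There 2 had an unadjusted p under 0.05, also with no share of all genes at that threshold: *Cxcl12* (-0.19 ± 0.07, adjusted p = 0.355) and *Cx3cl1* (-0.31 ± 0.08, adjusted p = 0.0504). The interaction of *Cxcl10* was 5.91 ± 2.21 with all libraries and -0.45 ± 0.64 without replicate 4 of the control groups. So the genotype differences seen with one treatment and not called with the other are not shown to differ between treatments.

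Cell type markers differed between the genotypes alongside these ligands. The 15 chondrocyte markers summed to 55678, 53817, 53772 and 51880 CPM in control and 37588, 32943, 32356 and 34631 CPM in *Notch2* tm1.1Ecan vehicle libraries. With TNFα they summed to 38386, 38713, 37624 and 44602 CPM in control and 23274, 22346, 22987 and 20396 CPM in *Notch2* tm1.1Ecan libraries. All 15 were called lower in mutant cells under both treatments (14 with vehicle without control vehicle replicate 4, where *Hapln1* had an adjusted p of 0.0885), beside 4.35% of all genes tested with vehicle and 4.33% with TNFα, and *Col2a1*, encoding type II collagen, was the most abundant at 13471 to 39308 CPM. With TNFα 12 of the 15 were lower than with vehicle in each genotype, beside 20.9% of all genes tested in control and 21.9% in *Notch2* tm1.1Ecan cells. Of 6 smooth muscle and pericyte markers 1 was higher and 5 lower with TNFα in each genotype. Of 12 macrophage markers 3 were higher and 1 lower in control cells, and 7 and 1 in *Notch2* tm1.1Ecan cells. Of 9 fibroblast and perichondrium markers it was 5 and 2, and 4 and 1. Of all genes tested 23.3% were higher in control and 22.6% in *Notch2* tm1.1Ecan cells. Without replicate 4 of the control groups the control counts with TNFα were the same for each of these lists. There 24.6% of all genes tested were higher and 22.8% lower. As a sum, cartilage markers were thus abundant in every library, although single markers were as low as 0.994 CPM. The sums of the genotypes did not overlap within a treatment.

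The 6 smooth muscle and pericyte markers summed to 2401, 2480, 2392 and 2187 CPM in control and 4698, 4241, 4266 and 4074 CPM in *Notch2* tm1.1Ecan vehicle libraries (5 called higher). With TNFα they summed to 1313, 1259, 1266 and 1506 CPM in control and 2368, 2376, 2288 and 2545 CPM in *Notch2* tm1.1Ecan libraries (4 called higher, 5 without control TNFα replicate 4), and *Acta2*, the actin of contractile cells, was the most abundant. The sums were higher in the mutant under both treatments, as was *Cxcl12*. The 9 fibroblast and perichondrium markers, led by *Col1a1*, summed to 34937, 33636, 31962 and 32953 CPM in control and 39020, 38284, 36424 and 38035 CPM in *Notch2* tm1.1Ecan vehicle libraries (4 called higher and 2 lower). With TNFα they summed to 33826, 31808, 31323 and 34368 CPM in control and 40811, 41131, 42950 and 35017 CPM in *Notch2* tm1.1Ecan libraries (5 called higher and 1 lower, 4 and 1 without control TNFα replicate 4). Of all genes tested, 6.19% were higher and 4.35% lower with vehicle, and 5.63% and 4.33% with TNFα, or 6.35% and 4.57% without control TNFα replicate 4. In bulk RNA, fewer cells of a type and less RNA per cell cannot be told apart, and the part of these markers in the differences of *Cxcl12*, *Cxcl14*, *Cxcl5* and *Cxcl16* was not tested.

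Leukocyte and endothelial markers were low. The 12 macrophage markers summed to 74.5, 79.3, 77.4 and 72.6 CPM in control and 158, 152, 148 and 134 CPM in *Notch2* tm1.1Ecan vehicle libraries (8 called higher, 9 without control vehicle replicate 4). With TNFα they summed to 101, 89.9, 85.4 and 91.5 CPM in control and 202, 192, 178 and 176 CPM in *Notch2* tm1.1Ecan libraries (9 called higher), and *Lyz2*, encoding lysozyme, was the most abundant at 36.3 to 97.8 CPM. The 7 endothelial markers summed to 8.51 to 10.5 CPM in control and 18.2 to 22.2 CPM in *Notch2* tm1.1Ecan vehicle libraries (4 called higher) and to 11.3 to 14.0 and 19.8 to 26.9 CPM with TNFα (3 called higher, 2 without control TNFα replicate 4), with *Tek* the most abundant. These counts of macrophage and endothelial genes stand beside 6.19% of all genes higher with vehicle (5.78% without control vehicle replicate 4) and 5.63% with TNFα (6.35% without control TNFα replicate 4). Each of the 10 markers of T, NK and B cells was under 1 CPM in every library, and *Cd3e*, *Cd3g*, *Cd8a*, *Ncr1* and *Ms4a1* had no count at all. Of 8 neutrophil markers 7 were under 1 CPM in every library. The other was *Camp*, encoding an antimicrobial peptide of neutrophil granules, with 1, 1, 1 and 8 counts in control vehicle, 1, 4, 0 and 4 in *Notch2* tm1.1Ecan vehicle, 22, 24, 24 and 23 in control TNFα and 27, 33, 25 and 4 in *Notch2* tm1.1Ecan TNFα libraries. It rose with TNFα in control (log2 fold change 2.97 ± 0.49 SE, adjusted p = 3.19e-05; 4.36 ± 0.59 without replicate 4 of the control groups) and *Notch2* tm1.1Ecan cells (4.06 ± 0.48, adjusted p = 7.55e-08), and was not called between genotypes. Markers of the leukocytes that CXCR2 and CXCR3 ligands attract were thus at or near 0 apart from *Camp*, while macrophage markers were present, and their part in the differences of the ligands was not tested.

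The receptors for these ligands were scarce. *Cxcr1* and *Cxcr5* had no count in any library, and *Cxcr2*, *Cxcr3*, *Cxcr6* and *Cx3cr1* stayed under 1 CPM. *Cxcr4* was close to 1 CPM with vehicle, at 1.09 ± 0.191 in control and 1.02 ± 0.088 in *Notch2* tm1.1Ecan cells (SD, n = 4), and fell with TNFα by a log2 fold change of -1.59 ± 0.40 SE (adjusted p = 0.00215) and -0.92 ± 0.36 (adjusted p = 0.0408). *Ackr3*, an atypical receptor that binds and removes CXCL12, was the only receptor of the list above 2 CPM, at 47.2 ± 3.93 CPM in control vehicle, 43.4 ± 2.35 in *Notch2* tm1.1Ecan vehicle, 38.3 ± 1.31 in control TNFα and 40.1 ± 1.34 in *Notch2* tm1.1Ecan TNFα libraries. It fell with TNFα in control cells (-0.29 ± 0.06, adjusted p = 0.000578; -0.32 ± 0.07 without replicate 4 of the control groups) and was not called in *Notch2* tm1.1Ecan cells (-0.11 ± 0.07). *Ackr1*, which binds many chemokines on red cells and venules, was called higher with TNFα in *Notch2* tm1.1Ecan cells (2.55 ± 0.68, adjusted p = 0.00304) at levels under 1 CPM.

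The proteases that shape these ligands were expressed throughout. *Adam17*, a sheddase of fractalkine, rose with TNFα from 88.8 ± 14.4 to 265 ± 17.5 CPM in control cells (log2 fold change 1.58 ± 0.12 SE, adjusted p = 1.64e-05; 1.75 ± 0.04 without replicate 4 of the control groups) and from 80.2 ± 7.68 to 252 ± 18.1 CPM in *Notch2* tm1.1Ecan cells (1.65 ± 0.07, adjusted p = 6.58e-17). *Adam10*, which sheds both fractalkine and CXCL16, stood at 120 to 123 CPM by group means and was not called in any comparison. *Dpp4*, a peptidase that trims and inactivates CXCL10 and CXCL12, was lower in *Notch2* tm1.1Ecan cells: it measured 10.8, 12.9, 11.8 and 10.9 CPM in control vehicle libraries and 4.34, 5.18, 4.10 and 4.42 CPM in *Notch2* tm1.1Ecan vehicle libraries (-1.35 ± 0.12, adjusted p = 4.26e-08). With TNFα it measured 10.2, 8.67, 9.91 and 10.9 CPM in control and 4.04, 3.45, 3.33 and 1.93 CPM in *Notch2* tm1.1Ecan libraries (-1.52 ± 0.15, adjusted p = 4.12e-08). Without replicate 4 of the control group the log2 fold changes were -1.39 with vehicle and -1.46 with TNFα. In control cells *Dpp4* was called lower with TNFα only without replicate 4 (-0.21 ± 0.11, adjusted p = 0.117, with all libraries and -0.30 ± 0.12, adjusted p = 0.0454, without). The genotypes did not overlap for *Dpp4*. *Cxcl12* was higher in mutant cells under both treatments, while *Cxcl10* was lower in mutant cells with TNFα (-0.30 ± 0.07, adjusted p = 0.00547). Whether *Dpp4* has a part in these differences was not tested.

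Other CXC genes gave a further contrast. *Cxcl3*, the closest neighbour in sequence of *Cxcl2*, measured 18.2, 17.3, 19.4 and 16.7 CPM in control TNFα libraries and 10.6, 10.2, 10.2 and 9.93 CPM in *Notch2* tm1.1Ecan TNFα libraries (log2 fold change -0.79 ± 0.10 SE, adjusted p = 2.08e-06). It rose with TNFα in control (3.85 ± 0.61, adjusted p = 0.00232) and *Notch2* tm1.1Ecan cells (5.18 ± 0.22, adjusted p = 2.86e-17). Control vehicle replicate 4 held 3.69 CPM of *Cxcl3* and the other control vehicle libraries at most 0.579 CPM, and without replicate 4 of the control groups the rise in control cells was 5.63 ± 0.22 (adjusted p = 2.01e-18). *Cxcl2* and *Cxcl3* share 101 stretches of 75 bases, the read length, among the 2209 in annotated *Cxcl2* transcripts, so a read there can be placed only through its mate; *Cxcl1* shares none with another CXC gene. *Ppbp*, a platelet chemokine, was lower in *Notch2* tm1.1Ecan cells with vehicle (-1.06 ± 0.32, adjusted p = 0.0363), a call lost without control vehicle replicate 4 (-1.07 ± 0.35, adjusted p = 0.053), and fell with TNFα in control cells (-1.24 ± 0.33, adjusted p = 0.00392). *Pf4*, also from platelets, was higher in *Notch2* tm1.1Ecan cells with TNFα (1.58 ± 0.50, adjusted p = 0.0425; 0.0657 without control TNFα replicate 4), and *Cxcl13*, a B cell attractant, rose with TNFα in control (2.69 ± 0.63, adjusted p = 0.0012; 3.40 ± 0.80 without replicate 4 of the control groups) and *Notch2* tm1.1Ecan cells (2.50 ± 0.73, adjusted p = 0.00594); neither reached 1 CPM. *Cxcl15* was not called in any comparison and *Cxcl17* had too few counts to be tested.

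Genes of the NF-κB, IRF and STAT families act upstream of inducible chemokines. Of 15 listed, 13 were higher and 0 lower with TNFα in *Notch2* tm1.1Ecan cells, beside 22.6% and 21.9% of all genes tested. In control cells 12 were higher and 1 lower, beside 23.3% and 20.9%. Without replicate 4 of the control groups these were again 12 and 1, beside 24.6% and 22.8%. *Rel* and *Irf8* were not called in either genotype. *Nfkbia*, encoding the inhibitor IκBα, reached 328 ± 25.1 CPM in control and 364 ± 24.8 CPM in *Notch2* tm1.1Ecan TNFα libraries, and *Nfkb2* 276 ± 23.3 and 311 ± 14.0 CPM. Between genotypes with vehicle, 0 of the 15 were higher and 1 lower in mutant cells, *Nfkbiz* (log2 fold change -0.49 ± 0.15 SE, adjusted p = 0.0383). Without control vehicle replicate 4, 0 were higher and 0 lower. Of all genes tested with vehicle, 6.19% were higher and 4.35% lower (5.78% and 4.59% without that library). Between genotypes with TNFα, 4 of the 15 were higher and 0 lower in mutant cells (4 higher and 1 lower, *Irf9*, without control TNFα replicate 4), beside 5.63% and 4.33% of all genes tested (6.35% and 4.57%). With all libraries the 4 were *Tnfaip3*, encoding the feedback inhibitor A20 (log2 fold change 0.39), *Stat3* (0.26 ± 0.06 SE, adjusted p = 0.00528), *Nfkb1* (0.32 ± 0.06, adjusted p = 0.000348) and *Rela* (0.26 ± 0.06, adjusted p = 0.0052). *Stat3* fell with TNFα in control cells (-0.16 ± 0.05, adjusted p = 0.00647), rose in *Notch2* tm1.1Ecan cells (0.17 ± 0.06, adjusted p = 0.0275) and was the 1 gene of this list called in the interaction (0.33 ± 0.08, adjusted p = 0.0413; 0.35 ± 0.08, adjusted p = 0.0209 without replicate 4 of the control groups). *Ifng* had no count in any library. *Ifnb1*, encoding interferon beta, had 2, 2, 3 and 7 counts in control TNFα libraries and 3, 0, 3 and 0 in *Notch2* tm1.1Ecan TNFα libraries. Its only count with vehicle was 1, in control vehicle replicate 4. At these counts near the floor it was called higher with TNFα in control cells (3.20 ± 1.10 SE, adjusted p = 0.0209). Of 9 TNF and interferon ligands and receptors, 7 had enough counts to be tested in *Notch2* tm1.1Ecan cells, where 6 were higher and 1 lower with TNFα. In control cells 8 were tested, with 7 higher and 1 lower. Without replicate 4 of the control groups 7 were tested, with 6 higher (24.6% of all genes tested) and 1 lower (22.8%). *Tnfrsf1a*, the main TNF receptor, was the member of that list that fell (-0.25 in control, -0.32 without replicate 4, and -0.29 in *Notch2* tm1.1Ecan cells). *Tnf* itself was higher in *Notch2* tm1.1Ecan cells with TNFα, at 7.29 ± 0.960 against 4.03 ± 0.462 CPM (0.85 ± 0.16, adjusted p = 0.00033).

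Most of the induced genes lie in clusters on chromosome 5. In the GRCm39 assembly, with GENCODE M39 gene bounds, *Cxcl5* (chr5:90907186-90909483), *Ppbp*, *Pf4*, *Cxcl3*, *Cxcl15*, *Cxcl1* (chr5:91039094-91040974) and *Cxcl2* (chr5:91051730-91053797) follow each other on the plus strand. *Cxcl9* (chr5:92469206-92475945), *Cxcl10* (chr5:92494497-92496748) and *Cxcl11* (chr5:92507403-92513344) follow each other on the minus strand. Within the plus-strand cluster *Cxcl5*, *Cxcl3*, *Cxcl1* and *Cxcl2* rose with TNFα, while *Ppbp*, *Pf4* and *Cxcl15*, which lie between them, stayed at or under 1.49 CPM in every library. The genes outside these clusters are *Cxcl12* on chromosome 6, *Cx3cl1* on chromosome 8, *Cxcl16* on chromosome 11 and *Cxcl14* on chromosome 13. Exons of *Cxcl16* overlap those of *Med11* and *Zmynd15* on the opposite strand over 2213 and 2132 of 5123 bases, *Cxcl11* overlaps the pseudogene *Gm2673* over 1582 of 3794 bases, and *Cxcl5*, *Cxcl10* and *Cx3cl1* share 523, 133 and 427 bases with genes on the opposite strand. The library kit marks strand, and the strand setting of the counting is not given in the sources used here, so reads in these overlaps may not be told apart.

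Promoters, from 250 bases before to 50 after the start, were found for 7 of the 10 genes in a RefSeq table of build GRCm38.p6, and not for *Cxcl5*, *Cxcl11* and *Cxcl16*. A motif like the NF-κB site, GGG and CC with 5 bases of any kind between them, was found on either strand in 5 of the 7 (*Cxcl1*, *Cxcl2*, *Cxcl9*, *Cxcl10* and *Cxcl12*) and in 50.4% of all 27025 promoters. The stricter GGAATTTCC, chosen after the sequences were seen and lying within matches of the looser motif, was found in *Cxcl1*, *Cxcl2* and *Cxcl10* and in 0.322% of all promoters. A motif like the interferon response element, GAAA and GAAA with 2 bases of any kind between them, was found in *Cxcl10* and *Cxcl14* and in 3.49% of all promoters. TGGGAA, like the site of the Notch partner RBPJ, was found in *Cxcl12* and *Cx3cl1* and in 25.5%, and TATAAA in *Cxcl9* and *Cx3cl1* and in 14.2%. These matches describe the letters and not a bound site. The promoters of the neighbouring genes *Cxcl1* (chr5:90890995-90891294, plus strand) and *Cxcl2* (chr5:90903649-90903948, plus strand) are shown because these genes rose together, with GGAATTTCC in capitals.
Cxcl1: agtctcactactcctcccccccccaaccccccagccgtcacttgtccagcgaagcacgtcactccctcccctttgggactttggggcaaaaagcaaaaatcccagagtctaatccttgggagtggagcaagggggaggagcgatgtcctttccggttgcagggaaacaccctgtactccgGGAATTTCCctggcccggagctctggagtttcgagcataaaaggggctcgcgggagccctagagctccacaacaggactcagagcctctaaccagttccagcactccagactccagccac
Cxcl2: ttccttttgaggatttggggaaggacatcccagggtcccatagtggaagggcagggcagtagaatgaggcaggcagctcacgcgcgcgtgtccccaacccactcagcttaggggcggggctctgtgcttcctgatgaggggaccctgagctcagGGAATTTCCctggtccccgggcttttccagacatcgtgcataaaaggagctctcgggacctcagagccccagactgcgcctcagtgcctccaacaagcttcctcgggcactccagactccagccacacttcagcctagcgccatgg

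The promoter of *Cxcl10* (chr5:92348840-92349139, minus strand), the most abundant ligand with TNFα, and that of *Cxcl12* (chr6:117168285-117168584, plus strand), the most abundant ligand with vehicle, follow. Capitals in *Cxcl10* mark the match of the interferon-like motif and those of the looser NF-κB-like motif, of which the last 2 overlap, and capitals in *Cxcl12* mark TGGGAA. The build is GRCm38.p6 for all 4, each written on the strand of its gene.
Cxcl10: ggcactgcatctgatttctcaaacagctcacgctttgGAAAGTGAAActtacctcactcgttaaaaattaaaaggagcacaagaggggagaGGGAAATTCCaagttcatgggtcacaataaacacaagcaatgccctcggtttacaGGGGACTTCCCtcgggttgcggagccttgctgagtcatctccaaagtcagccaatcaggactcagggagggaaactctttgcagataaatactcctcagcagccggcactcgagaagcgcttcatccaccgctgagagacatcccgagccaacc
Cxcl12: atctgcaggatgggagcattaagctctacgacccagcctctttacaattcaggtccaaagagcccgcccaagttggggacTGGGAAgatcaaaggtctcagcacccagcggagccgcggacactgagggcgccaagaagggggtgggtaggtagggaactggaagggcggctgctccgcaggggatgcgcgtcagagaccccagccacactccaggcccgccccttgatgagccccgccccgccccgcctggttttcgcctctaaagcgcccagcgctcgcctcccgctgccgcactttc

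The genes most like each ligand over the 16 libraries, by Pearson's r of log2 CPM among 13430 other genes with a mean of at least 1 CPM, are given as a description; vehicle and TNFα libraries form separate clusters, so high values are usual for genes that respond to TNFα. They were *Nos2*, *Gbp6* and *Ccl5* for *Cxcl10* (r = 0.997, 0.996 and 0.996), *Gbp5*, *Gbp2* and *Spib* for *Cxcl9* (0.998, 0.997 and 0.996), and *Irgm1*, *Heatr9* and *Icam1* for *Cxcl11* (0.998 each). For *Cxcl1* they were *Igtp*, *Zbp1* and *H2-Q5*, for *Cxcl2* *Gbp2*, *Ifi44* and *Saa3*, and for *Cxcl5* *Slco3a1*, *Lpar1* and *Snx2*, all at 0.993 or more. *Cx3cl1* was most like *Angptl4*, *Parp12* and *Vcam1* and *Cxcl16* most like *Irf1*, *Vcam1* and *Gsdmd*. *Cxcl12*, which varied with both genotype and treatment, was most like *Il1rn*, *Gas6* and *Ccn3* (0.991, 0.987 and 0.977), and *Cxcl14* most like *Coro1c*, *Adam19* and *Rsu1*.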

How the data were processed

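RNA sequencing counts per gene were deposited by the authors, who aligned paired reads of 75 bases with HISAT2 and counted them with HTSeq. The submitters' processing notes name build GRCm38 and the study's methods GRCm39, which was not settled here. Reads given to no gene (8.81% to 12.1% per library) were dropped. Symbols and exon lengths came from GENCODE M39; 665 identifiers, with 0.0182% of counts, were not in it. From the deposited counts, genes with at least 10 counts over the compared libraries were fitted with edgeR 4.0.16 (TMM, robust quasi-likelihood test, Benjamini-Hochberg over all genes, R 4.3.3), in 2-group fits of 8 libraries and over 16 libraries for the interaction. SE is the absolute log2 fold change over the square root of F. CPM, RPKM and log2 CPM (prior count 2) were computed here. DESeq2 1.42.0, other scalings, filters, thresholds, a common fit, a replicate block and left-out libraries were the alternatives. The fits were tested on simulated data.

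Libraries are labelled as biological replicates, and no source used here says whether those of 1 group came from separate litters. Counts of every pair of libraries in a group differed by more than sampling noise. Genes named were the 10 ligands and, for each ligand, the 3 genes most like it. The tested genes of the lists of other CXC genes, receptors and proteases were also named. From other lists at most the 3 most abundant and the called genes with the largest rise and fall were named. Added after their values were seen were *Ifng*, *Ifnb1*, cell markers at 0, *Irf1*, *Nfkb1*, *Rela*, *Rel*, *Irf8*, *Irf9* and *Hapln1*. The members, the lists and the leaving out of replicate 4 of the control groups were chosen with earlier results of these data known.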

Additional observations from a re-analysis of the deposited data

Results flagged for a closer look

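In 10 of the 40 sets of 4 libraries looked at (10 genes in 4 groups), the highest or lowest library lay further from the others than Dixon's critical value allows. Of these, 8 were control vehicle replicate 4: *Cxcl1* at 17.0 CPM (others 0.838 to 2.05), *Cxcl2* at 4.22 CPM (0 to 0.076), *Cxcl5* at 28.7 CPM (13.6 to 15), *Cxcl9* at 53.0 CPM (0.076 to 0.450), *Cxcl10* at 231 CPM (0.381 to 0.884), *Cxcl11* at 1.13 CPM (0 in each), *Cxcl16* at 11.7 CPM (2.67 to 3.67) and *Cx3cl1* at 174 CPM (39.6 to 45.5). On the main component of variation the same library lay at 20.6 and the other control vehicle libraries at 64.2 to 67.1. Control TNFα replicate 4 held 43.0 CPM of *Cxcl16*, below the 52.5 to 54.0 CPM of the other control TNFα libraries. *Notch2* tm1.1Ecan vehicle replicate 3 held 1.97 CPM of *Cxcl10*, above the 0.414 to 0.551 CPM of the other *Notch2* tm1.1Ecan vehicle libraries. The cause of these values was not tested.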

How the results depend on the processing

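The 10 calls with TNFα in *Notch2* tm1.1Ecan cells were made with every library left out in turn and under every alternative but a fold change of at least 2, which left out *Cxcl12*. With TNFα in control cells, 9 genes were called, 8 to 10 with libraries left out, 8 at a fold change of at least 2 or with no filter beyond 1 count, and 10 with DESeq2 or the common fit of 16 libraries. Between genotypes with vehicle, 2 genes were called, 0 at a fold change of at least 2, 3 with no filter beyond 1 count (*Cxcl11*, lower, added), and 2 to 4 with libraries left out; with TNFα 6 were called, 0 at a fold change of at least 2, 2 in the common fit of 16 libraries, and 4 to 6 with libraries left out. For the interaction 0 were called, and 1 with DESeq2. Directions turned only with libraries left out. With vehicle the genotype log2 fold change then ranged from -0.038 to 0.41 for *Cxcl5*, -5.67 to 0.67 for *Cxcl9*, -7.0 to 0.17 for *Cxcl10*, -0.68 to 0.27 for *Cxcl16* and -0.70 to 0.32 for *Cx3cl1*; with TNFα it ranged from -0.080 to 0.041 for *Cxcl1*. The interaction ranged from -0.62 to 5.83 for *Cxcl9*, -0.45 to 6.67 for *Cxcl10* and -0.31 to 0.78 for *Cx3cl1*. *Cxcl11* was among the genes tested without replicate 4 of both control groups. No estimate is given for it without control vehicle replicate 4, since both vehicle groups were then at 0. Apart from *Cxcl5* with vehicle and *Cxcl1* with TNFα, whose values lie near 0, these turns came with control vehicle replicate 4 left out; the cause was not tested. Libraries that share a replicate number showed little correlation of their deviations from group means (-0.051 to 0.041). All genes with at least 10 counts entered, many of them low, so these values cannot exclude a pairing. With the replicate number as a block, the counts with TNFα were 7 in control cells (without *Cxcl2*, adjusted p = 0.057, and *Cxcl9*, 0.0917) and 10 in *Notch2* tm1.1Ecan cells. Between genotypes they were 4 with vehicle (with *Cxcl2*, lower, adjusted p = 0.0325, and *Cxcl11*, lower, 0.0195) and 6 with TNFα. For the interaction the count was 0. Other scalings turned no direction. edgeR's own filter left 7 genes tested with vehicle. Depth limits *Cxcl2*, *Cxcl9* and *Cxcl11* with vehicle, and *Notch2* tm1.1Ecan TNFα replicate 4 throughout.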
